A study of Mus musculus with 12 samples.

Results

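The genes described here are the replication-dependent histone genes of the mouse, the members of the Hist1, Hist2, Hist3 and Hist4 clusters. They were taken as every row of the count table whose symbol starts with Hist1h, Hist2h, Hist3h or Hist4h, which gave 68 of the 24421 gene symbols. By symbol, 6 of these are of the linker histone type H1, 18 of H2A, 19 of H2B, 12 of H3 and 13 of H4. The H2B genes include Hist3h2bb-ps, which is annotated as a pseudogene. The Hist1 cluster on chromosome 13 holds 54 of them, the Hist2 cluster on chromosome 3 holds 10, the Hist3 cluster on chromosome 11 holds 3, and Hist4h4 stands by itself on chromosome 6.

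Histone proteins package DNA, and a cell that copies its genome needs new histones at the same time. Most replication-dependent histone genes have no introns and are transcribed mainly in S phase, with the coactivator NPAT, the product of Npat, at their promoters. Their mRNAs end in a short stem-loop in place of a poly(A) tail. The stem-loop binding protein, Slbp, and the U7 small nuclear ribonucleoprotein direct the cleavage that makes this end. A stock of variant histones such as H3f3a and H2afz is made outside S phase from ordinary genes with introns and poly(A) tails. A selection for poly(A) tails therefore removes most replication-dependent histone mRNA, and a preparation from all RNA keeps it.

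The study sequenced RNA from mouse embryos of strain C57Bl/6 with a neural crest cell-specific change in Eftud2, whose protein is the GTPase of the U5 particle in the splicing machinery. There were 12 libraries in 4 groups of 3: heterozygous (Eftud2+/-, labelled as control) and homozygous (Eftud2-/-) embryos at embryonic day 9.0 (E9.0), and the same genotypes at E9.5, all without treatment. Both genotypes thus carry at least 1 changed allele, and no wild-type library was analysed here. The labels differ on the material: they speak of neural crest cells as the source, of cranial nerve ganglia, and of heads kept at dissection. They do not name the Cre driver, the number of embryos in a library or whether the replicates came from separate litters, so p-values measure only the spread between these libraries. They give the molecule as total RNA and the series text speaks of mRNA profiles, while the library preparation is given only as standard Illumina. In such bulk samples, fewer cells of a type and less RNA per cell cannot be told apart.

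Total counts ran from 13914543 to 31172708 per library. Eftud2, the targeted gene, was at 302, 275 and 279 CPM (counts in 1e6 counts of the library, with library sizes adjusted by the trimmed mean of M-values, TMM) in the heterozygous E9.0 libraries and at 236, 235 and 232 CPM in homozygous libraries of that stage. The E9.5 values were 248, 255 and 264 CPM against 226, 221 and 226 CPM, so homozygous libraries were lower at both stages. The fall had an adjusted p of 0.0193 at E9.0 and missed the threshold of 0.05 at E9.5 (0.0906), by edgeR's quasi-likelihood test with Benjamini-Hochberg adjustment over 14810 genes. The E9.0 call was lost in 3 of the 6 fits that left out 1 library (edgeR adjusted p up to 0.0713) and in 4 of 14 alternatives, with log2 changes of -0.31 to -0.08 over the 14. At E9.5 2 of 14 alternatives made the call. All markers of neural crest, cranial ganglion neurons, neural progenitors, facial mesenchyme, endothelium, erythroid cells, heart muscle and surface ectoderm that were looked up had counts in at least 1 library. The row Rn45s, the precursor of the ribosomal RNAs, had a share of 37.4% in heterozygous E9.0 replicate 1, of 6.05% to 16.2% in the other 5 E9.0 libraries and of 4.4% to 5.90% at E9.5. Levels of the whole histone family are for this reason given as a share of the counts without that row.

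The 3′ ends of the histone models are printed first, since they decide which RNA preparations keep these transcripts. In GENCODE M21 (GRCm38, the build mm10 named in the submitters' processing notes), 63 of the 68 genes had 1 exon in every transcript and 67 were annotated as protein coding. The exception is Hist3h2bb-ps, annotated as a pseudogene. A model extended at least 16 bases past the stop codon in 52 genes. In 46 of these a 16-base stem-loop, with 6 paired bases on each side of a loop of 4, began 21 to 58 bases after the stop codon (median 31). Among 20931 other protein-coding genes the same search found it in 22, or 0.105%. The examples below give the stem-loop in capitals with 5 flanking bases on each side, as DNA on the coding strand, for genes that the results turn on and for the commonest forms.
Hist1h2bj: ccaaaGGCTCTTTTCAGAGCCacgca
Hist1h2ad: acaaaGGCTCTTTTCAGAGCCatcca
Hist1h2bb: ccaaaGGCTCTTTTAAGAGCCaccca
Hist1h1t: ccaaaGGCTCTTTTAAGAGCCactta
Hist1h4d: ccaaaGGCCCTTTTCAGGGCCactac
Hist4h4: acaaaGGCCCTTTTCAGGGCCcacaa
Hist1h4b: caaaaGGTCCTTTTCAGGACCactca
Hist2h4: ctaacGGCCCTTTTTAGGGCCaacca

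There were 8 distinct stem-loops. The form of Hist1h2bj was shared by 26 genes of the H1, H2A, H2B and H3 types. The form of Hist1h2bb and Hist1h1t, with another loop on the same stem, was found in 6 genes. The form of Hist1h4d was found in 7 genes, each of them an H4 gene. For 16 genes, Hist2h2bb and Hist1h2ba among them, the model ends at or near the stop codon, so no stem-loop could be looked for. A poly(A) signal stood in the last 50 bases of a model in 17 genes. One of them was Hist2h2be, whose model reaches 2192 bases past the stop codon and had no stem-loop in the first 100.

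The promoters of 3 genes that stand out below are printed because histone types are known to differ in promoter elements. The sequences are the 250 bases before the start, from RefSeq (GRCm38.p6), 5′ to 3′ on the gene's own strand. Capitals mark 4 motifs on either strand, none of which contains another: the box of the TATA-binding protein, TATAAA; the box bound by NF-Y, CCAAT; the octamer bound by POU2F1, ATTTGCAT; and the element of H1 genes, AAACACA.
Hist1h1a, chr13:23763418-23763667, plus strand: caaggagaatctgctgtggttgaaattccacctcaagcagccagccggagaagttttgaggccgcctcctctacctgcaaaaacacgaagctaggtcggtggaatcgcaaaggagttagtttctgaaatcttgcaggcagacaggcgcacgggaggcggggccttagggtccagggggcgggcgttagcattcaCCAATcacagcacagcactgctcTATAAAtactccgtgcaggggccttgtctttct
Hist1h2bj, chr13:22042948-22043197, plus strand: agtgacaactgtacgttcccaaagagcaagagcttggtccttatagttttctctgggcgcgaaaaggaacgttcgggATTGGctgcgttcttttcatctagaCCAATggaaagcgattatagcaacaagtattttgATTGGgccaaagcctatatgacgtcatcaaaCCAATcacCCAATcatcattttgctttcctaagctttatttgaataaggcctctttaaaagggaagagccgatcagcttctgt
Hist1h2ba, chr13:23934157-23934406, minus strand: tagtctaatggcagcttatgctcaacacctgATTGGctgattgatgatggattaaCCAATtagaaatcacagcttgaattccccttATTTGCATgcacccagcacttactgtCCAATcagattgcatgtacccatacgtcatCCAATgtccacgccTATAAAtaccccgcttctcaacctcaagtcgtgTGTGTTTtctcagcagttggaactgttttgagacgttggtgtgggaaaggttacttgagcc

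A promoter was matched for 61 of the 68 genes. CCAAT was present in 82.0% of them and in 33.8% of the 32851 promoters in the table, and TATAAA in 47.5% against 12.4%. By type, CCAAT was in all 6 H1, all 17 H2A and all 16 H2B promoters, and in 3 of 12 H4 promoters. The octamer was in 7 of 17 H2A and 7 of 16 H2B promoters and in none of the H1, H3 or H4 promoters, against 1.60% of all promoters. The H1 element was in 5 of 6 H1 promoters, Hist1h1a being the exception, and in 6.25% of all promoters. These are matches of letters in a window of 250 bases and say nothing of binding.

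The histone genes were abundant in all 12 libraries. Summed over the 68 genes, heterozygous E9.0 libraries held 1.77%, 1.83% and 1.88% of the counts without Rn45s, while the homozygous libraries of that stage were at 2.07%, 2.08% and 2.34%. The E9.5 shares were 2.41%, 2.37% and 2.23% in heterozygous and 2.30%, 2.10% and 2.08% in homozygous libraries. The homozygous libraries were thus all above the heterozygous ones at E9.0, and at E9.5 the groups overlapped with 2 of the 3 homozygous libraries below every heterozygous one. The means were 1.83% ± 0.0586 and 2.17% ± 0.154 at E9.0, and 2.33% ± 0.0960 and 2.16% ± 0.124 at E9.5 (SD, n = 3). The widest 95% Wilson interval of a single library's share was 0.00809 percentage points on either side, which covers counting error only. These sums are given without a test, because the genes were chosen with earlier results of these data known.

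**Figure D1:**
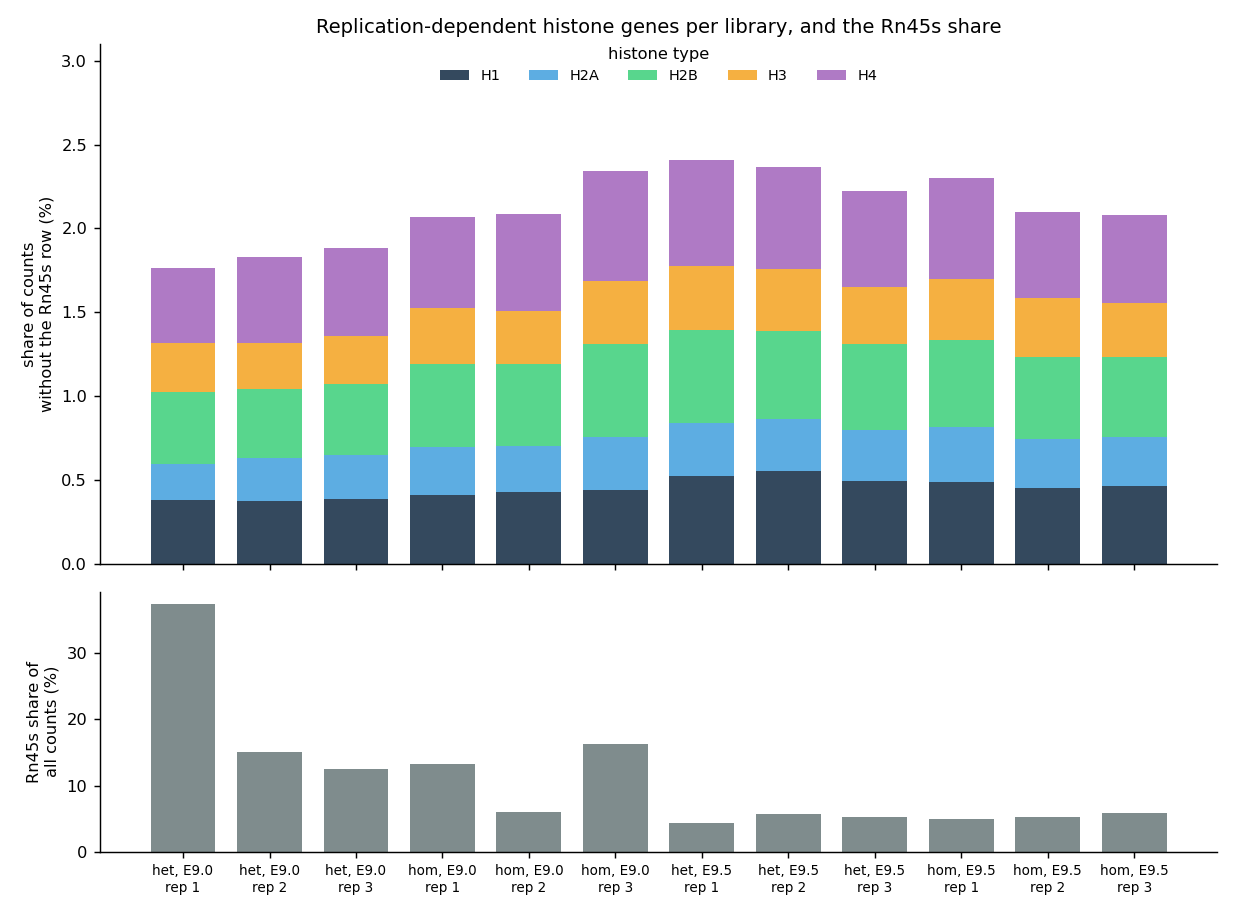
Upper panel: share of the counts without the Rn45s row (%) taken by the H1, H2A, H2B, H3 and H4 genes in each of the 12 libraries, as stacked bars. Lower panel: Rn45s share of all counts (%). Heterozygous E9.0 libraries have the lowest histone share (1.77% to 1.88%), and heterozygous E9.0 replicate 1 has the highest Rn45s share (37.4%).

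The 5 histone types shared the lowest and the highest group. H4 took the largest share, with means of 0.496%, 0.591%, 0.606% and 0.548% in heterozygous E9.0, homozygous E9.0, heterozygous E9.5 and homozygous E9.5 libraries. H2B followed with 0.421%, 0.513%, 0.531% and 0.496%. For H1 the 4 means were 0.380%, 0.426%, 0.524% and 0.468%, for H3 0.285%, 0.342%, 0.362% and 0.345%, and for H2A 0.246%, 0.293%, 0.311% and 0.304%. In every type the heterozygous E9.0 mean was the lowest and the heterozygous E9.5 mean the highest.

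Single genes differed widely in level. Among the 61 genes of 1 exon with a RefSeq span under 1 kilobase, levels were compared as CPM per kilobase of that span. Hist2h2bb, an H2B gene, was the highest with a mean of 2162 CPM per kilobase over the 12 libraries. The H4 genes Hist1h4d (1848), Hist1h4k (1513) and Hist1h4h (1454) came next, followed by the H1 gene Hist1h1a (1301) and the H4 gene Hist1h4a (1259). Hist1h1d, Hist1h4f and Hist1h3c were at 1178, 1124 and 1122 CPM per kilobase. The 12 genes with the most counts together held 46.8% of all histone counts, and 5 of them were the somatic H1 genes Hist1h1a to Hist1h1e. As plain CPM, Hist1h1d was at 787, 763 and 818 in heterozygous E9.0 libraries, and Hist2h2bb at 1040, 989 and 1064.

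Not all 68 genes could be measured. Of these, 58 passed the filter on low counts and were tested. Of the other 10, Hist1h2bq, Hist1h2br, Hist1h2ao, Hist1h2ap, Hist2h3c2 and Hist2h2aa1 had no counts in any library, and Hist1h4m, Hist2h3c1 and Hist2h2aa2 had at most 2 counts in a library. A count of 0 allows a level of up to 0.102 to 0.248 CPM in a library, taken as 3 counts of its total without Rn45s. Several of these have near-identical copies: in Hist2h2aa2 none, and in Hist1h2bq only 2.68%, of the 50-base windows of the transcript occur at 1 place in the annotated transcripts. That share was 56.5% in the median gene that was tested. It was under 15% in 7 tested genes, among them Hist1h3h (6.08%, at a mean of 207 CPM) and Hist1h3i (12.4%). A low share thus did not always go with absent counts. Reads that match several copies may have been left out or split, in a way not given in the sources used here, so the levels of close copies are uncertain. Hist2h3c1 was at or near 0 although 65.3% of its windows occur at 1 place. Hist1h2aa, the gene of a testis form of H2A, had 0 to 8 counts although 97.7% of its windows occur at 1 place.

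The comparison of homozygous with heterozygous embryos at E9.0 asked whether the histone genes differ with Eftud2 at the earlier stage. No histone gene passed the threshold of 0.05 in edgeR, against 0.587% of all tested genes. At an unadjusted p under 0.05 there were 27 of 58 (26 higher and 1 lower), against 13.3% of all tested genes. Levels were higher in homozygous embryos for 51 of the 58, or 87.9%, where 49.0% of all tested genes were higher. The median log2 fold change was 0.20, against -0.00 over all tested genes. In 27 genes every homozygous library lay above every heterozygous one, against 9.07% of all tested genes, and in 2 genes every one lay below, against 8.2%. DESeq2 called 8 histone genes, 7 higher and 1 lower, where it called 1.46% of all genes tested. The 7 were Hist1h2ab, Hist1h2ad, Hist1h2bb, Hist1h2bc, Hist1h2bj, Hist1h3c and Hist1h4j, and the gene called lower was Hist1h2ba.

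The 3 genes with the lowest unadjusted p are core histone genes of the Hist1 cluster, each with 1 exon: Hist1h2bj (chr13:22043214-22043676, plus strand), Hist1h2bb (chr13:23746734-23747241, plus strand) and Hist1h2ad (chr13:23574381-23574952, plus strand, overlapped by Gm44359 on the opposite strand). Hist1h2bj was at 214, 201 and 234 CPM in heterozygous and at 258, 252 and 305 CPM in homozygous E9.0 libraries, which do not overlap. Its level was 1.25-fold higher, a log2 difference of 0.33 (SE 0.08), with an adjusted p of 0.0664 in edgeR. Hist1h2bb was at 389, 346 and 404 CPM against 489, 489 and 545 CPM, a log2 difference of 0.42 (SE 0.10) with an edgeR adjusted p of 0.0699. Its groups do not overlap either. Hist1h2ad was at 68.1, 75.9 and 102 CPM against 134, 131 and 129 CPM. This is a log2 difference of 0.67 (SE 0.15) with an edgeR adjusted p of 0.0907, again without overlap. The exact two-sided permutation test gave p = 0.1 for each of the 3, the smallest that 3 against 3 libraries can give.

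By type, the median log2 difference at E9.0 was 0.18 for the 6 H1 genes, 0.24 for the 13 tested H2A genes, 0.24 for the 17 tested H2B genes, 0.17 for the 10 tested H3 genes and 0.19 for the 12 tested H4 genes. All 10 H3 genes were higher in homozygous embryos. By cluster, 46 of the 48 tested Hist1 genes were higher, with a median of 0.24. In Hist2 4 of 6 were higher (median 0.09), and in Hist3 1 of 3. Hist4h4, the single gene on chromosome 6, went the other way, at 353, 285 and 390 CPM in heterozygous and 252, 268 and 236 CPM in homozygous libraries. These do not overlap, and the log2 difference was -0.45 (SE 0.32, edgeR adjusted p = 0.587). Genes with a poly(A) signal in the model had a median of 0.18 and those without one 0.20. Higher in homozygous embryos were 10 of the 14 tested genes with the signal and 41 of the 44 without it, against 49.0% of all tested genes. The 2 genes with every homozygous library below the heterozygous ones both have the signal, where 8.2% of all tested genes lay below. The difference between these classes was not tested.

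The scaling bears on this comparison. With total counts in place of TMM factors the median of all tested genes moved to 0.19 at E9.0 and that of the histone genes to 0.38, a difference of the same sign between them. Without heterozygous E9.0 replicate 1, the library with the highest Rn45s share, the median of the histone genes was 0.17. In the same fit 2 of them were called, Hist1h2bh higher and Hist1h2ba lower, against 0.411% of all tested genes. Over the 6 fits that left out 1 library of the comparison the median was 0.14 to 0.24. With the Rn45s share as a term in the model 6 histone genes were called, 5 higher and 1 lower, where 3.29% of all tested genes were called.

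At E9.5 the same comparison gave 1 histone gene past the threshold, against 1.89% of all tested genes in either direction and 0.702% called lower. It was Hist1h1a (chr13:23763666-23764406, plus strand), the gene of a linker histone variant, which fell in homozygous embryos. It was at 1241, 1312 and 1090 CPM in heterozygous and at 973, 1005 and 955 CPM in homozygous E9.5 libraries. The groups do not overlap, and the log2 fold change was -0.31 (SE 0.07, edgeR adjusted p = 0.0368, exact permutation p = 0.1). The call was kept in 1 of the 6 fits that left out 1 library, the one without heterozygous E9.5 replicate 3. It was lost in the other 5, with adjusted p of up to 0.163 and log2 fold changes of -0.38 to -0.25. It was also lost with total counts and without robust dispersions.

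The other histone genes at E9.5 were mostly slightly lower in homozygous embryos. Of the 58, 49 were lower and 9 higher, the median log2 fold change was -0.10 against -0.00 for all tested genes, and 6 had an unadjusted p under 0.05 (1 higher and 5 lower), against 13.4% of all tested genes. In 6 genes all homozygous libraries lay below the heterozygous ones, against 9.47% of all tested genes, and in 1 all lay above, against 11.4%. The gene that lay above was Hist3h2bb-ps, at 22.7, 32.2 and 32.1 CPM in heterozygous and 43.6, 39.9 and 47.6 CPM in homozygous libraries, a log2 difference of 0.59 (SE 0.17) with an edgeR adjusted p of 0.121. The H4 genes had the lowest median, -0.16, with 11 of 12 lower, and the H3 genes the one nearest 0, -0.05.

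**Figure D2:**
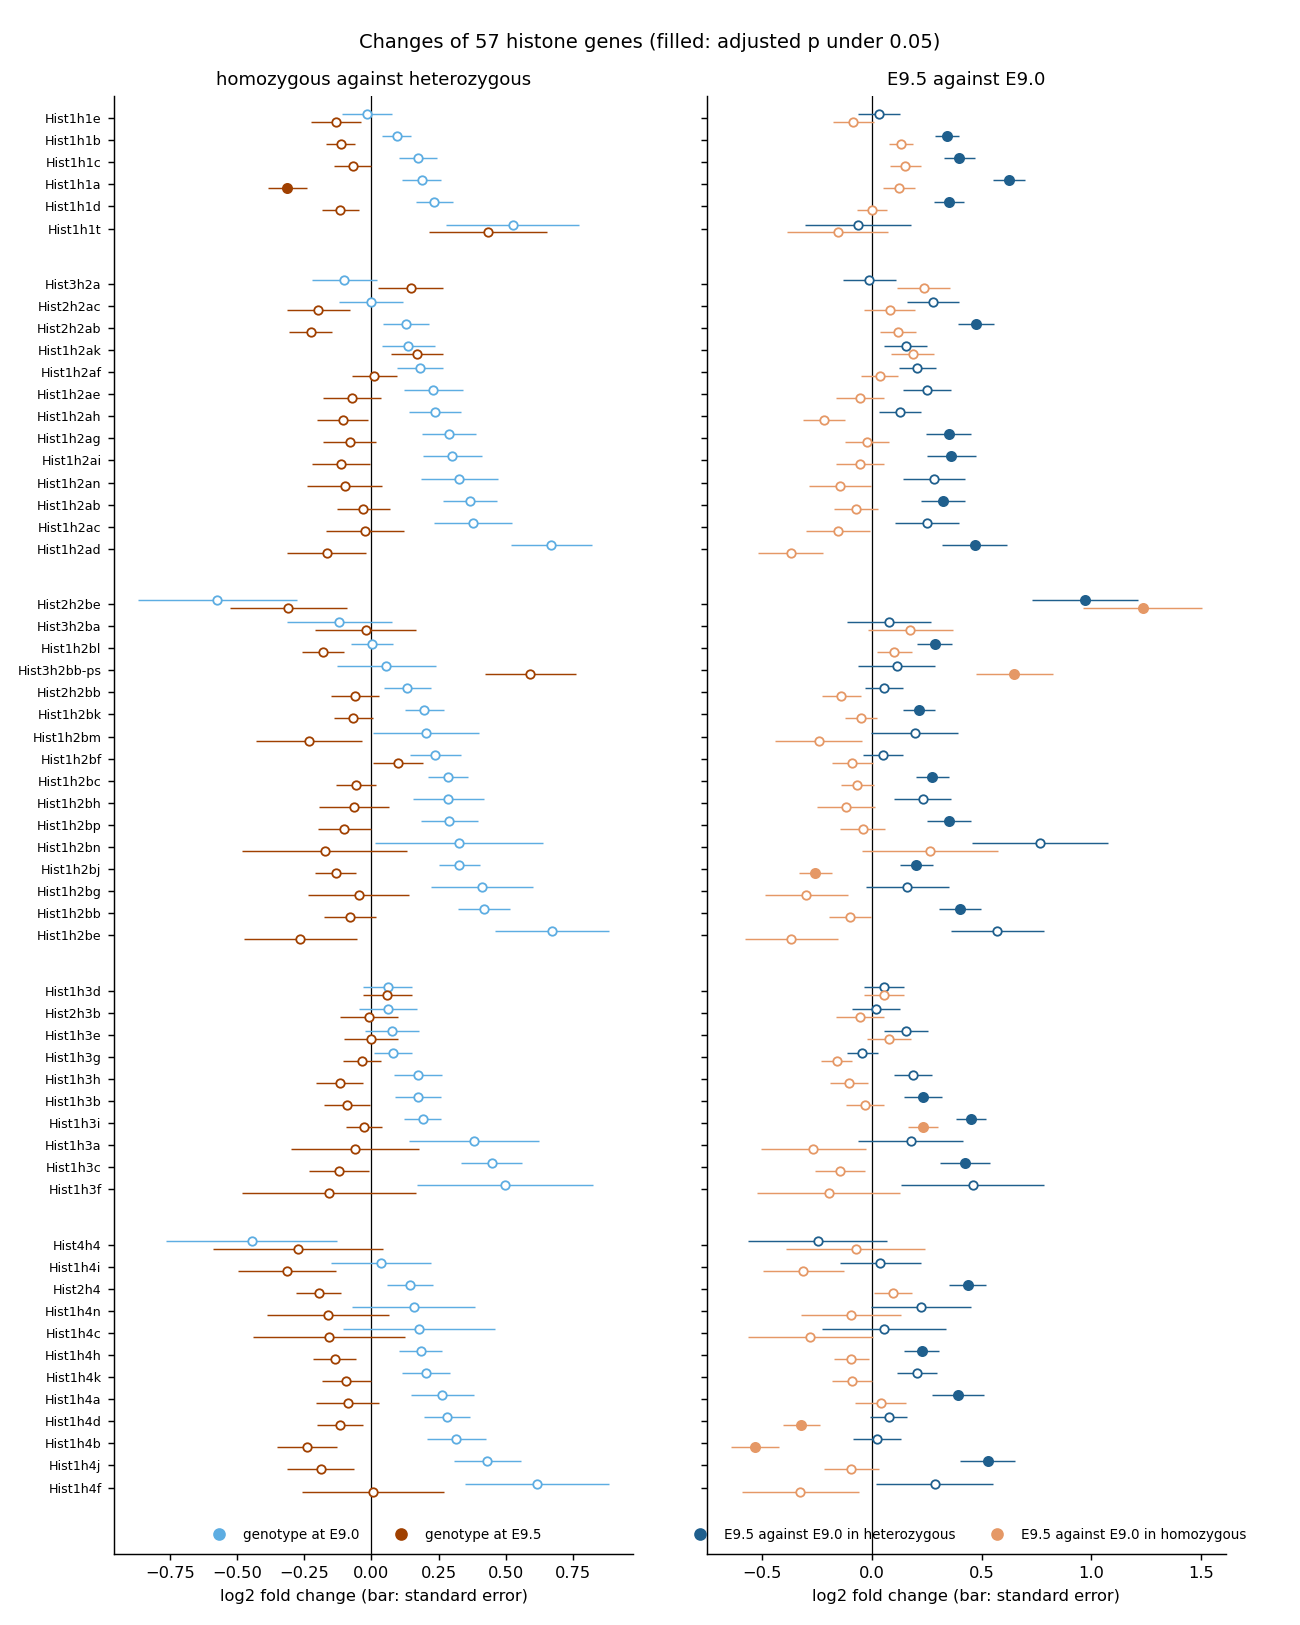
Log2 fold change (horizontal axis, with standard errors as bars) of 57 of the 58 tested histone genes, one per line and grouped by histone type: homozygous against heterozygous at each stage (left) and E9.5 against E9.0 in each genotype (right). Filled points passed an adjusted p of 0.05. At E9.0 most points lie right of 0 (51 of 58 genes) and at E9.5 most lie left (49 of 58). Hist1h2ba is left out for its scale.

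Averaged over both stages, no histone gene passed the threshold in edgeR, against 2.96% of all tested genes, and 9 had an unadjusted p under 0.05 (8 higher and 1 lower), against 16.9% of all tested genes. DESeq2 called 0 histone genes here, against 4.38% of all genes. The median log2 fold change was 0.06. The 3 genes with the lowest unadjusted p were Hist1h1t, the testis form of H1, at 0.48 (SE 0.17, edgeR adjusted p = 0.144), the H2B gene Hist1h2bf at 0.17 (SE 0.07, 0.199) and Hist3h2bb-ps at 0.32 (SE 0.12, 0.206). Hist1h1t was low, at 1.49 to 4.06 CPM in the 12 libraries.

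The test of whether the genotype difference itself changed between stages (the interaction of genotype and stage) gave no histone gene past the threshold in edgeR, against 0.0675% of all tested genes. At an unadjusted p under 0.05 there were 26 of 58, each with a lower genotype difference at E9.5, against 4.52% of all tested genes. The median was -0.34, against 0.01 over all tested genes, and 51 of 58 values were below 0. Hist1h1a had the lowest p among them, with a log2 value of -0.50 (SE 0.10, edgeR adjusted p = 0.12), followed by Hist1h2bj at -0.46 (SE 0.11, 0.18) and Hist1h2ad at -0.84 (SE 0.21, 0.258). DESeq2 called these 3, each with a lower difference at E9.5, against 0.371% of all genes called in that direction. Without heterozygous E9.5 replicate 3, edgeR called 3 as well, namely Hist1h1a, Hist1h2ad and Hist1h4f, against 0.0732% of all tested genes. Hist1h1a had been at 863, 930 and 897 CPM in homozygous E9.0 libraries, all above the heterozygous ones of that stage (793, 714 and 856 CPM), so its groups stood in opposite orders at the 2 stages.

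From E9.0 to E9.5 in heterozygous embryos, 23 of the 58 tested histone genes rose and 1 fell, that is 24 called genes against 35.2% of all tested genes (19.2% rose and 16% fell). Without overlap between the stages were 26 histone genes that were higher, against 25.2% of all tested genes, and 1 that was lower, against 22.5%. The median log2 fold change was 0.23 against 0.01 for all tested genes, and 53 of 58 were higher at E9.5. The heterozygous E9.0 libraries enter both this comparison and that of genotypes at E9.0. In every comparison of stages given here, stage cannot be told apart from any batch shared by the libraries of a stage. The rises included 4 of the 6 H1 genes, 5 of 13 H2A, 7 of 17 H2B, 3 of 10 H3 and 4 of 12 H4 genes. With the Rn45s share as a term, 14 rose and 1 fell, against 20.9% of all tested genes. With total counts, which moved the median of all tested genes to 0.38 and that of the histone genes to 0.59, 51 rose and 1 fell, against 47.2% of all tested genes.

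The H1 genes were among the clearest of these. Hist1h1a was at 793, 714 and 856 CPM at E9.0 and 1241, 1312 and 1090 CPM at E9.5 in heterozygous embryos, without overlap. It rose by 0.62 on the log2 scale (SE 0.07, edgeR adjusted p = 9.69e-06), that is 1.54-fold. Hist1h1c, Hist1h1d and Hist1h1b rose by 0.40, 0.35 and 0.34, with edgeR adjusted p of 4.02e-04, 9.72e-04 and 1.60e-04. Hist1h1e, the remaining somatic H1 gene of the cluster, was at 808, 689 and 618 CPM at E9.0 and 709, 750 and 705 CPM at E9.5, which overlap, and its log2 fold change was 0.03 (SE 0.09).

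Among core histone genes the largest rise was that of Hist2h2be, an H2B gene whose model ends with a poly(A) signal. It was low, at 2.64, 2.36 and 2.84 CPM at E9.0 and 4.57, 6.66 and 4.12 CPM at E9.5, without overlap, and rose 1.96-fold (log2 0.97, SE 0.24, edgeR adjusted p = 0.00537). Hist1h4j, an H4 gene, rose by 0.53 (SE 0.13), from 216 to 268 CPM at E9.0 to 317 to 372 CPM at E9.5. Hist2h2ab, an H2A gene, rose by 0.47 (SE 0.08), and the H3 gene Hist1h3i by 0.45 (SE 0.07). Hist1h2ad was called at 0.47 (SE 0.15, edgeR adjusted p = 0.0306), although its groups overlap, with 89.5 CPM in 1 E9.5 library and 102 CPM in 1 E9.0 library. That call was lost in 4 of the 6 fits that left out 1 library and in 6 of 14 alternatives, with a log2 change of 0.18 when the Rn45s share was a term.

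The same stages in homozygous embryos gave 3 rises and 3 falls, that is 6 of 58 against 35.4% of all tested genes (19.6% rose and 15.8% fell). The libraries of the stages did not overlap in 5 histone genes that were higher, against 26% of all tested genes, and in 9 that were lower, against 22.1%. The homozygous libraries enter this comparison and those of genotypes. The median log2 fold change was -0.08, and 39 of 58 genes were lower at E9.5; without homozygous E9.0 replicate 3 the median was 0.00. With total counts 2 rose and none fell, against 22.5% of all tested genes, and the median was 0.09 where that of all tested genes was 0.18. With total counts without Rn45s 7 rose and 2 fell, against 35.5% of all tested genes. Hist2h2be rose here too, by 1.23 (SE 0.27, edgeR adjusted p = 0.00219), from 1.95, 1.66 and 1.69 CPM to 2.73, 5.47 and 4.20 CPM. Hist3h2bb-ps rose by 0.65 (SE 0.18, adjusted p = 0.0128) and Hist1h3i by 0.23 (SE 0.07, adjusted p = 0.0145), both by edgeR. The first lost its call in 1 and the second in 2 of the 6 fits that left out 1 library.

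The 3 falls in homozygous embryos were in core histone genes of the Hist1 cluster. The H4 gene Hist1h4b was at 436, 420 and 512 CPM at E9.0 and at 335, 278 and 333 CPM at E9.5, and fell by 0.53 (SE 0.11, edgeR adjusted p = 0.00197). In heterozygous embryos its log2 fold change was 0.02 (SE 0.11). Hist1h4d, also an H4 gene, fell by 0.32 (SE 0.09, edgeR adjusted p = 0.00810), from 790, 784 and 978 CPM to 746, 661 and 636 CPM. Hist1h2bj fell by 0.26 (SE 0.08, edgeR adjusted p = 0.0148), from 258, 252 and 305 CPM to 242, 225 and 215 CPM, and had risen by 0.20 (SE 0.08, edgeR adjusted p = 0.0463) in heterozygous embryos, a call lost in 5 of the 6 fits that left out 1 library. The fall of Hist1h2bj was lost in 2 of the 6 fits that left out 1 library. None of the 3 falls was called with total counts, whose log2 values were -0.36, -0.15 and -0.08.

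**Figure D3:**
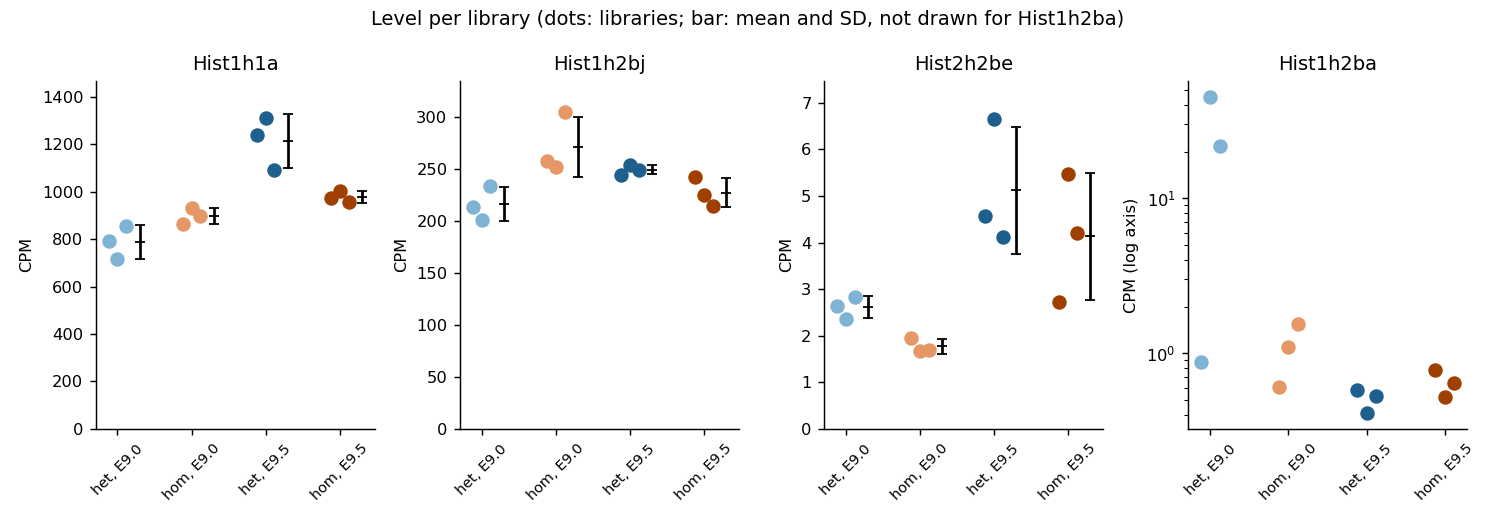
Level in CPM (vertical axis) of Hist1h1a, Hist1h2bj, Hist2h2be and Hist1h2ba in every library, by group; dots are libraries and black bars the mean and SD of 3, not drawn for Hist1h2ba. Hist1h1a is highest in the heterozygous E9.5 libraries (1090 to 1312 CPM). Hist1h2ba, on a log axis, is at 45.2 and 21.8 CPM in 2 heterozygous E9.0 libraries and at 0.411 to 1.55 CPM in the other 10.

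Hist1h2ba, the gene of the testis form of H2B, stood apart from all other members. It had 842 and 507 counts in heterozygous E9.0 replicates 2 and 3 and 8 to 23 counts in each of the other 10 libraries. In CPM it was at 0.881, 45.2 and 21.8 in heterozygous E9.0, at 0.601, 1.09 and 1.55 in homozygous E9.0, at 0.579, 0.411 and 0.533 in heterozygous E9.5, and at 0.776, 0.522 and 0.638 in homozygous E9.5 libraries. The level was thus high in 2 libraries of 1 group, and replicate 1 of that group lay within the range of the other 9. It is the 1 fall called between stages in heterozygous embryos (log2 fold change -5.49, SE 1.12, edgeR adjusted p = 0.00563). The genotype difference at E9.0 was -4.38 (SE 1.12) with an edgeR adjusted p of 0.171 and an exact permutation p of 0.3, and it became a call without heterozygous E9.0 replicate 1 (2.75e-05). The stage call was not made by limma-voom, nor by edgeR with only the heterozygous groups in the fit. Whether these counts come from transcripts of the gene or from another source was not tested. Hist1h2aa, which is transcribed away from it on the other side of the promoter printed above, had 0 to 8 counts.

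The members varied more within groups than other abundant genes. Over the 51 histone genes at a mean of 100 CPM or more, the median SD of log2 CPM within groups was 0.15, against 0.08 over the 2116 tested genes at that level. Hist1h1b was the steadiest of those tested, with an SD of 0.05. After Hist1h2ba (1.36), the most variable were Hist1h3f (0.42), Hist1h2bn (0.40), Hist4h4 (0.40) and Hist1h4c (0.37). Hist1h3f was at 401, 187 and 292 CPM in heterozygous E9.0 and at 486, 479 and 244 CPM in heterozygous E9.5 libraries.

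In heterozygous E9.5 replicate 3, 7 of the 51 abundant histone genes lay more than 0.3 below their group's mean on the log2 scale, against 0.662% of the abundant genes. They were Hist1h3f, Hist1h4f, Hist1h2bg, Hist1h2ad, Hist1h2be, Hist1h4c and Hist1h3a, with deviations of -0.65, -0.78, -0.42, -0.33, -0.49, -0.60 and -0.64. All 7 are Hist1 genes. Other libraries had deviations of this size too. Each deviation is taken from the mean of its own group, so a low library moves the others of that group up. In heterozygous E9.5 replicate 1, 6 of the 51 lay more than 0.3 above (0.473% of the abundant genes). Among these 6 were Hist1h3f, Hist1h4f, Hist1h4c and Hist1h3a, which are low in replicate 3, so the 2 counts are not independent. In homozygous E9.5 replicate 3, 4 lay below (0.331%), and in heterozygous E9.0 replicate 1, 4 lay above (0.992%) and 2 below (0.567%). In heterozygous E9.5 replicate 3, 27 of the 58 tested histone genes were above their group's mean, and the median deviation was -0.02. Of other Hist1 genes there, Hist1h2ac was at -0.26 and Hist1h3c at -0.24, while Hist1h2bn was at 0.21 and Hist1h4a at 0.19. In homozygous E9.0 replicate 3, 49 of the 58 were above the group's mean (median 0.14), against 14 and 8 in replicates 1 and 2. In homozygous E9.5 replicate 1, 51 were above it (median 0.10), against 23 and 14 in replicates 2 and 3.

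**Figure D4:**
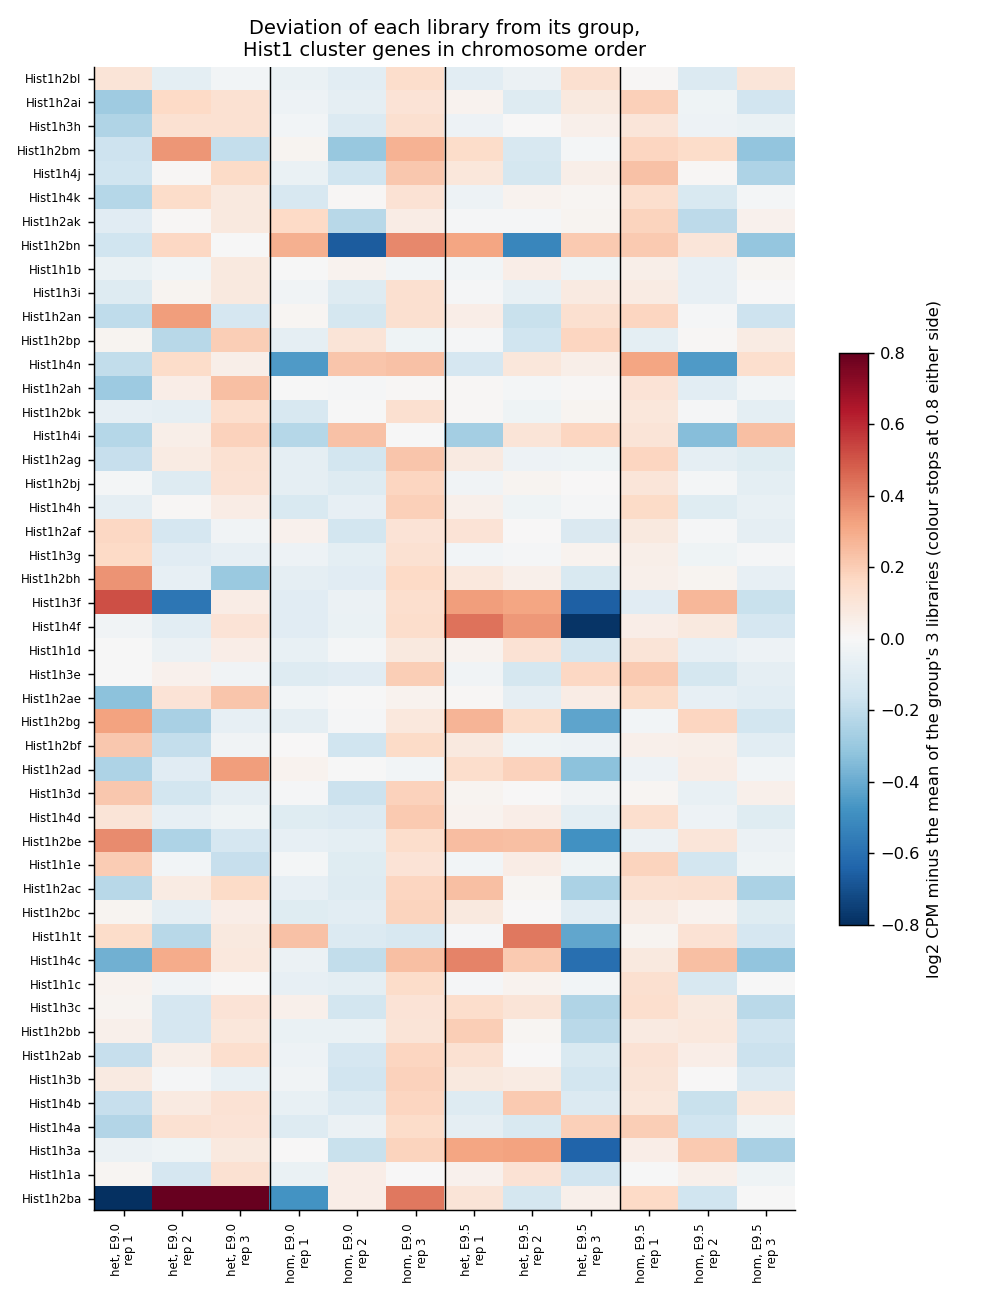
Log2 CPM of each library minus the mean of its group's 3 libraries (colour, red above and blue below, stopping at 0.8 either side) for the 48 tested Hist1 genes in chromosome order (rows) and the 12 libraries (columns). Heterozygous E9.5 replicate 3 is blue for Hist1h3f (-0.65), Hist1h4f (-0.78) and Hist1h3a (-0.64), and Hist1h2ba leaves the scale in heterozygous E9.0 libraries.

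The histone share was next set beside the Rn45s share. Within the 6 E9.0 libraries Pearson's r was -0.47 and Spearman's rho -0.37, and within the 6 E9.5 libraries -0.52 and -0.66. Both correlations changed sign without the 2 libraries farthest from the median Rn45s share, to 0.57 at E9.0 and 0.49 at E9.5, so each rests on those libraries. These values are descriptions over libraries that share 2 genotypes, and the difference between genotypes is part of each. Homozygous E9.0 replicate 3 had the highest histone share of its stage (2.34%) together with the second highest Rn45s share (16.2%).

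Over all 6 libraries of a stage, the histone share followed the summed level of other RNAs without a poly(A) tail more closely than the Rn45s share. This order did not hold in every setting below. The list has 138 such RNAs, of which 131 are in the count table, 13 of them at 0 in every library. It includes small nuclear, small Cajal body and small nucleolar RNAs, Rmrp, Rpph1 and Terc. Rmrp and Rpph1 alone made up 86.0% to 93.4% of this sum in the 12 libraries, so that it mostly follows these 2 RNAs. With the histone share it gave r = 0.87 and rho = 0.83 within E9.0, and r = 0.82 and rho = 0.94 within E9.5. Without the 2 farthest libraries r was 0.45 and 0.71, where the Rn45s share gave 0.57 and 0.49. Without Rmrp and Rpph1, a choice made after seeing the data, r was 0.68 and rho 0.77 within E9.0. Within E9.5 r was 0.61 and rho 0.54, where the Rn45s share gave a rho of -0.66. Heterozygous E9.0 libraries held 0.361%, 0.402% and 0.373% of the counts without Rn45s in these RNAs, against 0.392%, 0.453% and 0.476% in homozygous libraries of that stage. The E9.5 shares were 0.636%, 0.460% and 0.447% in heterozygous and 0.378%, 0.337% and 0.330% in homozygous libraries, which do not overlap. The remaining RNAs, without those 2, had a mean share of 0.0456%, 0.0563%, 0.0423% and 0.0355% in heterozygous E9.0, homozygous E9.0, heterozygous E9.5 and homozygous E9.5 libraries, so their share was not higher at E9.5 in heterozygous embryos, unlike that of the whole sum. The highest sum, in heterozygous E9.5 replicate 1, had Rpph1, the RNA of ribonuclease P, at 3337 CPM, against 1072 to 2120 CPM in the other 11 libraries.

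**Figure D5:**
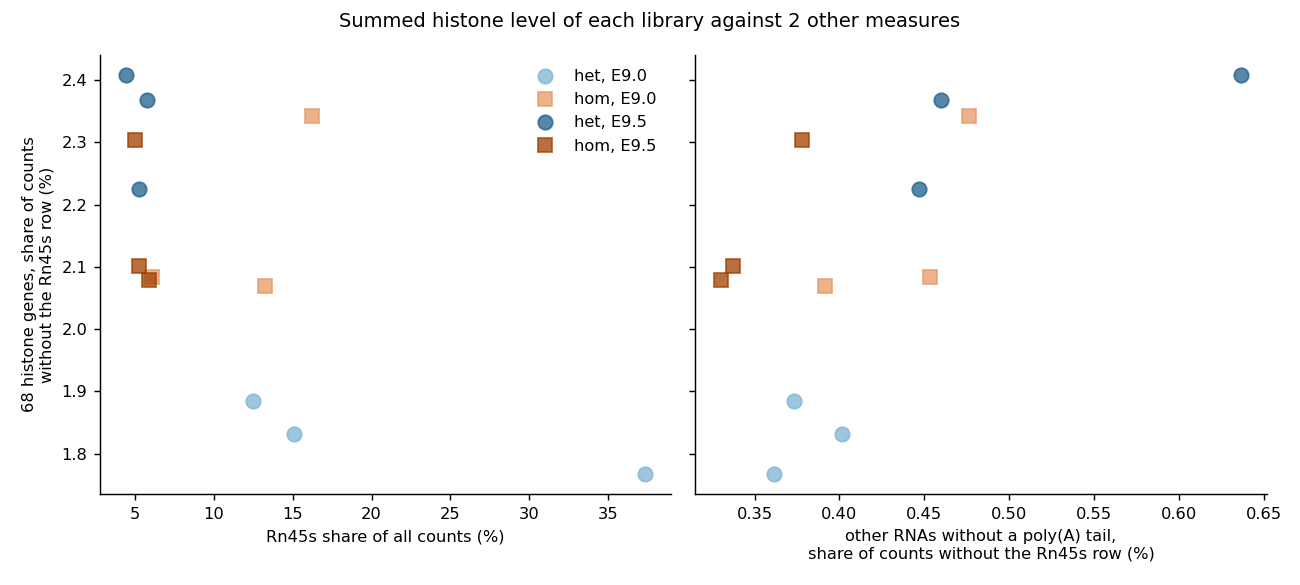
Summed histone share (vertical axis, % of the counts without the Rn45s row) of the 12 libraries against 2 other shares. Left: the Rn45s share of all counts. Right: the share of the listed RNAs without a poly(A) tail, 131 of which are in the count table. Circles are heterozygous and squares homozygous libraries, light E9.0 and dark E9.5. The 3 heterozygous E9.0 libraries lie lowest (1.77% to 1.88%) in both panels.

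Gene by gene, those RNAs had medians of the same sign as the histone genes in the genotype comparison at each stage, and of opposite sign averaged over stages (-0.04 against 0.06). At E9.0 74 of the 96 tested were higher in homozygous embryos (median log2 0.19), and at E9.5 75 of 96 were lower (median -0.21). None passed the threshold in edgeR in either comparison, with 10 and 13 at an unadjusted p under 0.05, against 13.3% and 13.4% of all tested genes. Between stages 32 of 96 fell and 4 rose in heterozygous embryos (median -0.51), where 16% of all tested genes fell and 19.2% rose. In homozygous embryos 52 fell and 1 rose (median -0.81), against 15.8% and 19.6%. The part of library preparation in the histone results was not tested.

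Histone genes with symbols outside the Hist1 to Hist4 families were listed for comparison, with no test of their difference from the replication-dependent genes. Of the 11 tested genes of this list, 6 were higher and 5 lower in homozygous embryos at E9.0 (median log2 0.00), and their share of the counts without Rn45s was 0.317% ± 0.00931 and 0.325% ± 0.00818 (SD, n = 3). The abundant H3f3b and H2afz had log2 differences of -0.04 and 0.05. The exception was H2afj, which codes for an H2A variant: it rose 0.62 (SE 0.11, edgeR adjusted p = 0.0148) at E9.0, a call lost without heterozygous replicate 2 (0.124) or homozygous replicate 3 (0.0616). At E9.5 9 of 11 were lower (median -0.07) with none called. The mean shares at that stage were 0.354% in heterozygous and 0.339% in homozygous libraries. As for the histone genes, the heterozygous E9.0 mean was the lowest and the heterozygous E9.5 mean the highest. Between stages 8 of 11 were higher in heterozygous embryos (median 0.03), with H1f0 and H2afy called. In homozygous embryos 6 were higher and 5 lower (median 0.04), with H2afj and H2afy2 called lower.

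Genes that make and destroy histone mRNA were tested as a list of 38, of which 36 passed the filter. At E9.0 1 was called, Cstf2t, a paralog of the cleavage stimulation factor subunit Cstf2, which rose by 0.29 (SE 0.06, edgeR adjusted p = 0.0348; not kept in any of the 6 fits without 1 library), while 24 of 36 were lower (median -0.04). At E9.5 none was called and 28 of 36 were lower (median -0.03). Slbp was at a mean of 146, 142, 142 and 141 CPM in heterozygous E9.0, homozygous E9.0, heterozygous E9.5 and homozygous E9.5 libraries, and Npat at 56.1, 54.5, 54.7 and 51.3 CPM. Between stages 10 fell and 1 rose in heterozygous and 12 fell and 2 rose in homozygous embryos, where 35.2% and 35.4% of all tested genes were called (16% and 15.8% lower). One of the falls in both was Pou2f1, the octamer-binding factor (log2 -0.38 and -0.23, and -0.02 and -0.06 with total counts).

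Markers of S phase and histone chaperones, 34 genes, all passed the filter. None was called between genotypes at either stage, with 10 higher and 24 lower at E9.0 (median -0.04) and 4 higher and 30 lower at E9.5 (median -0.07). Averaged over stages Tk1, the thymidine kinase of S phase, fell by 0.18 (SE 0.04, edgeR adjusted p = 0.0366), and Prim1, a subunit of DNA primase, by 0.18 (SE 0.05, adjusted p = 0.0490 in edgeR). These calls were lost in 9 and 10 of the 12 fits that left out 1 library. From E9.0 to E9.5, 4 rose and 8 fell in each genotype, where 35.2% and 35.4% of all tested genes were called. The gene-wise median of this list was thus negative at E9.0, where that of the histone genes was positive. The list's summed share of the counts without Rn45s was 0.765% ± 0.0291 in heterozygous and 0.773% ± 0.0333 in homozygous E9.0 libraries (SD, n = 3). At E9.5 these shares were 0.765% ± 0.0111 and 0.739% ± 0.0166. The difference between the lists was not tested.

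Markers of cell types moved with genotype and stage beside the histone genes. At E9.0 all 6 endothelial markers were higher in homozygous embryos with none called, and their summed level was 199 to 220 CPM against 241 to 250 CPM. At E9.5 5 of the 6 rose, at 137 to 195 CPM against 256 to 282 CPM. Of the 5 neural crest markers 1 fell at E9.0 (Tfap2b; 247 to 259 CPM against 205 to 231 CPM) and 4 fell at E9.5 (140 to 168 CPM against 132 to 160 CPM). The fifth, Ets1, is the largest part of that sum and was at 91.0, 51.9 and 88.7 CPM in heterozygous against 119, 87.4 and 99.3 CPM in homozygous E9.5 libraries, which overlap. At E9.5 3 of 6 facial mesenchyme markers fell (Alx1, Dlx2 and Msx1; 214 to 314 CPM against 182 to 228 CPM). Of the 6 ganglion neuron markers 2 fell at that stage (Pou4f1 and Tubb3; 134 to 157 CPM against 109 to 114 CPM), as did Fabp7 of the 5 neural progenitor markers. Higher in homozygous embryos, with none called, were 2 of the 6 ganglion neuron markers, both at an unadjusted p under 0.05, and 2 of the 5 neural progenitor markers, 1 of them at that p. One of the former was Isl1, at 19.1, 16.1 and 19.8 CPM against 20.6, 24.3 and 23.7 CPM, which rose when averaged over stages. All 7 tested erythroid markers were lower in homozygous embryos at both stages, with none called. All 4 surface ectoderm markers and all 5 heart muscle markers were higher in homozygous embryos at both stages, with Epcam at E9.5 the 1 that passed the threshold. From E9.0 to E9.5 in heterozygous embryos all 7 tested of 8 erythroid markers rose, from 663 to 1180 CPM to 4049 to 5284 CPM, and all 5 heart muscle markers, from 27.6 to 142 CPM to 1314 to 1660 CPM. In homozygous embryos these 2 lists went from 550 to 1210 CPM to 2828 to 5200 CPM and from 62.5 to 230 CPM to 1589 to 2100 CPM. Of the 6 ganglion neuron markers 5 rose between stages in each genotype. Of the 5 neural crest markers 3 fell in each genotype (Foxd3 and Sox10 in both, Ets1 in heterozygous and Pax3 in homozygous embryos). Among 6 endothelial markers 3 fell in heterozygous (Cdh5, Flt1 and Kdr) and 2 rose in homozygous embryos (Pecam1 and Tie1). Neural progenitor markers had 2 rises and 1 fall in each genotype. Facial mesenchyme had 2 rises in heterozygous and 1 fall in homozygous embryos. In fits that left out 1 library, the E9.5 calls of Alx1, Pou4f1, Fabp7 and Epcam were lost in 5, 2, 4 and 4 of 6, and those of Dlx2, Msx1 and Tubb3 in none. The part of these cell types in the histone results was not tested.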

How the data were processed

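RNA-seq libraries of mouse embryos were analysed from 1 deposited table of raw counts per gene symbol, whose whole numbers the authors had not normalized. The submitters' processing notes name cutadapt, STAR, featureCounts, MultiQC and mm10; the annotation, the strand setting and the treatment of reads with several matches are not given in the sources used here. Of the members, 21 overlap a gene on the opposite strand; without the strand setting, whether reads of both were told apart is not known. The members, gene lists and tests were chosen with earlier results of these data known.

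The counts were tested in R 4.3.3 with edgeR 4.0.16 (filterByExpr, TMM factors, robust quasi-likelihood fit, 1 mean for each of the 4 groups, two-sided, Benjamini-Hochberg adjustment, threshold 0.05), which kept 14810 genes. The fit was also run on simulated data, and no result given here rests on that run. Alternatives used DESeq2, limma-voom, other scalings and filters, a replicate block, the Rn45s share as a term, and fits without 1 library. Deviations used log2 of CPM plus 0.5. Symbols were matched to GENCODE M21 (68 of 68) and RefSeq (67 to 1 gene). Genes named in the text are Eftud2, Rn45s, the 12 members with the most counts, members past the threshold (for genotype, otherwise the 3 with the lowest p; between stages, the 6 largest changes each way), testis-type and isolated members, and list genes past the threshold. Members named for their spread, by DESeq2 or in other fits were added after their values were seen.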

Additional observations from a re-analysis of the deposited data

How the results depend on the processing

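Counts of called histone genes depended on the fit, and the percentages in brackets are the share of all tested genes called in the same fit. At E9.0 genotype calls went from 0 to 1 with upper-quartile factors (0.763%) or no filter (0.504%), and to 2 with total counts (0.527%, or 0.716% without Rn45s) or without robust dispersions (0.567%). They were 4 with only the groups compared (0.467%), 6 with the Rn45s share as a term (3.29%), 8 in DESeq2 (1.46%) and 0 to 2 in fits that left out 1 library (0.254% to 0.573%). At E9.5 the 1 call became 0 at an adjusted p under 0.01 (0.547%), against a 1.5-fold change (0.0878%), with total counts (0.831%) and without robust dispersions (1.76%). It became 2 with the Rn45s term (2.65%) or DESeq2 (3.03%), and was 0 to 1 without 1 library (0.885% to 1.68%). The averaged comparison gave 1 call with total counts (2.4%), 2 with the Rn45s term (6.04%) and 0 to 2 without 1 library (1.64% to 2.73%). The interaction gave 1 with total counts (0.0945%), 3 in DESeq2 (0.513%) and 0 to 3 without 1 library (0.00666% to 0.106%). Stage calls in heterozygous embryos (24) became 13 at 0.01 (22.4%), 1 against a 1.5-fold change (6.5%), 52 with total counts (47.2%) and 15 with the Rn45s term (20.9%), and 16 to 25 without 1 library (27.2% to 32.5%). In homozygous embryos (6) they became 3 at 0.01 (22.8%), 0 against a 1.5-fold change (6.32%), 2 with total counts (22.5%) and 11 with only the groups compared (36%), and 4 to 8 without 1 library (27% to 31.7%). The causes were not tested. Of 50 single-gene results that were refitted, 4 changed direction in some fit, none of them a call: Hist1h1e and Hist1h4b between stages in heterozygous embryos (-0.054 to 0.14 and -0.090 to 0.081 without 1 library), and at E9.0 H3f3b (0.14 with total counts, -0.12 to 0.030 without 1 library) and H2afz (-0.0082 to 0.11). The median over histone genes between stages in homozygous embryos ran from -0.13 to 0.00 without 1 library.

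The summed share depended on its denominator. In heterozygous E9.0, homozygous E9.0, heterozygous E9.5 and homozygous E9.5 libraries it was 1.68%, 1.95%, 2.0% and 1.86% of TMM-scaled counts, and 1.40%, 1.67%, 1.77% and 1.65% without the 5 highest genes. Of all counts, Rn45s included, it was 1.44%, 1.91%, 2.21% and 2.04%. The correlation with the Rn45s share at E9.0 was -0.34 on TMM-scaled counts. Leaving out the 2 farthest libraries gave 0.57 and 0.49 (E9.0, E9.5), and 0.45 and 0.71 for other RNAs without a tail. For the latter, 0.68 and 0.61 were found without Rmrp and Rpph1.

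Replicate numbers did not pair the libraries: correlations of same-numbered deviations ran from -0.17 to 0.11. With a replicate block the histone calls were 0 for genotype at E9.0 (0.466% of all tested genes), 0 at E9.5 (1.67%; Hist1h1a, edgeR adjusted p = 0.0655), 23 between stages in heterozygous (33.9%) and 6 in homozygous embryos (33.8%). Depth limits members at few counts, such as Hist1h1t and Hist2h2be.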
